A study of Mus musculus with 8 samples.

Results

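The genes described are 9 transcription factors known for keeping T cells naive or quiescent, *Klf2*, *Klf3*, *Foxo1*, *Foxo3*, *Foxp1*, *Tcf7*, *Lef1*, *Satb1* and *Bach2*. They were chosen by symbol from the 23284 genes listed, and each was present as a single row in all 8 libraries. RNA of splenic naive CD4 T cells and of cultured Th1, Th2 and Th17 effector cells was sequenced, with 2 libraries in each group, all from DO11.10 Tg mice, whose transgenic TCR recognizes a peptide of OVA. Naive cells were sorted by surface markers, CD44low CD4+ among them, and were not cultured, whereas the effector cells came from 6 days of culture with OVA peptide and irradiated splenocytes depleted of T cells, so the culture itself and the subset cannot be told apart in a comparison with naive cells. Th1 cultures contained IL-2 (30 U/ml), IL-12 (100 U/ml) and anti-IL-4 Ab (1 μg/ml). Th2 cultures contained IL-2 (30 U/ml), IL-4 (100 U/ml) and anti-IFNγ Ab (10 μg/ml). Th17 cultures contained IL-6, IL-1β and IL-23 (10 ng/ml each) and both antibodies (10 μg/ml each). It is not stated whether the 2 libraries of a group came from separate mice, so p-values measure only the spread between these libraries.

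Naive T cells circulate between blood and lymphoid organs in a quiescent state that is actively maintained. KLF2 and the FOXO factors are known to drive genes for lymph node homing and exit and for survival, and the kinase AKT moves FOXO proteins out of the nucleus after TCR stimulation. TCF1 (the product of *Tcf7*) and LEF1 are partners of β-catenin that act in T cell development and in memory cells with self-renewal capacity, FOXP1 holds naive T cells in quiescence, BACH2 represses effector genes, and SATB1 organizes chromatin in thymocytes.

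Expression was read as FPKM, which scales the fragments counted for a gene to exon length and to library depth. The confidence intervals in the files implied between 14463538 and 21058108 fragments per library, fewest in naive cells. All 7 CD4 T cell markers examined were detected in every library, and the lineage markers followed the labels, with *Ifng* at 802 and 614 FPKM in Th1, *Il4* at 129 and 97.6 FPKM in Th2 and *Il17a* at 347 and 335 FPKM in Th17 cells. RNA of genes used as markers of other cell types was also present. The summed FPKM of 6 B cell markers was 6.58 to 8.61 in naive, 2.51 to 3.42 in Th1, 7.87 to 11.1 in Th2 and 19.6 to 20.2 in Th17 libraries. That of 5 CD8 T and NK cell markers was 55.4 to 94.1 in naive and 9.08 to 13.3 in effector libraries. Nearly all of it came from *Cd8b1*. *Cd8a* was at 2.94 and 1.77 FPKM in naive and between 0.0113 and 0.268 FPKM in effector libraries. The sum thus rests on *Cd8b1* and alone does not show that CD8 T or NK cells were present. The sum of 9 listed myeloid and dendritic cell markers ranged from 9.28 to 26.0 FPKM, and that of 7 listed neutrophil and erythroid markers from 0.228 to 7.98 FPKM. The neutrophil granule genes *Mpo* and *Elane* lay above 2 FPKM in all 3 effector libraries with replicate number 1 and under 0.2 FPKM in those with number 2. The part of these cells in the results below was not tested, and in bulk RNA fewer cells of a type and less RNA per cell cannot be told apart.

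The sequence upstream of 4 of the genes is shown because their RNA took different courses, with *Klf2* and *Tcf7* among the genes that fell furthest from naive to effector cells, *Bach2* nearest to its naive level in Th17 cells, and *Satb1* higher in Th2 and Th17 cells. The sequences come from the RefSeq promoter table of GRCm38.p6 (the same assembly as mm10), run 5′ to 3′ on the strand of the gene, and exclude annotated UTRs. Capitals mark the GC-rich motif CCNCNCCC, of the kind bound by KLF and SP factors, on either strand with overlapping matches merged. The *Klf2* stretch is chr8:72318812-72319032 (plus strand), just upstream of the annotated gene. The *Tcf7* stretch is chr11:52282596-52282711 (minus strand), which lies inside an intron of a longer annotated *Tcf7* transcript. The *Satb1* stretch is chr17:51833291-51833540 (minus strand), upstream of *Satb1* and within an exon of the unclassified transcript Gm6934 on the opposite strand. The *Bach2* stretch is chr4:32417185-32417434 (plus strand), inside an intron of a longer annotated *Bach2* transcript.
Klf2: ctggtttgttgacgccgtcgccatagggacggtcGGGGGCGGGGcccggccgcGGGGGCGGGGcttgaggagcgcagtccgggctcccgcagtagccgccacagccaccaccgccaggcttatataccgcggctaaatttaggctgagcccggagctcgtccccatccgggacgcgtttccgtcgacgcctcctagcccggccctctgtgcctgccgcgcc
Tcf7: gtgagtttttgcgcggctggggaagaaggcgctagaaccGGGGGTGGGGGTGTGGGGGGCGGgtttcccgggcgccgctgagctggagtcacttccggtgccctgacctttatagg
Satb1: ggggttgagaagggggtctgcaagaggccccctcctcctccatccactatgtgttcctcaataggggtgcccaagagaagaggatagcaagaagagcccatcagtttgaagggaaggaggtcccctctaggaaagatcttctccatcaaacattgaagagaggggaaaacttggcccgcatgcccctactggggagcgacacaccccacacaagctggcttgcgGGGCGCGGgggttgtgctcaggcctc
Bach2: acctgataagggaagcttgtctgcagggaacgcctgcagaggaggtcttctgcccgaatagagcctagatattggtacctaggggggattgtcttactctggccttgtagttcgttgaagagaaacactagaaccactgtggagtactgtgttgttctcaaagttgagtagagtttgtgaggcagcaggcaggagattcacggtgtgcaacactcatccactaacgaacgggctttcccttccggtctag

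For 8 of the 9 genes, all but *Foxp1*, the table held a start site within 148 bases of the start in the files. In the 250 bases upstream of these sites, CCNCNCCC matched in 7 of the 8 genes, all but *Bach2*, and in 45.9% of all 32851 promoters of the same length. The motif was thus found upstream of *Satb1* as well as of genes that fell. The forkhead motif TGTTTAC (3.17% of all promoters), the TCF/LEF motif CTTTGAT (3.21%) and the AP-1 and BACH type motif TGANTCA (6.75%), searched on both strands, matched in none of the 8 windows, which says only that these letters are not in them. The GC content of the 8 windows ranged from 50.4% (*Bach2*) to 78.4% (*Klf3*), against a median of 52.4% over all promoters.

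Most of the 9 genes were highest in naive cells. In 7 of them, all but *Foxo3* and *Satb1*, the 6 effector libraries all lay below both naive libraries, as in 31.1% of the 11198 genes tested, and in *Satb1* they all lay above them, as in 30.5%. Summed over the 9 genes, the level was 1405 and 1475 FPKM in the naive libraries and between 262 and 397 FPKM in the effector libraries. The composition also changed. *Tcf7* made up 52.3% and 50.2% of the naive sum and 2.20% to 16.9% of the effector sums, and *Satb1* 9.61% and 10.1% of the naive sum and 55.1% to 65.5% of the effector sums.

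**Figure D1:**
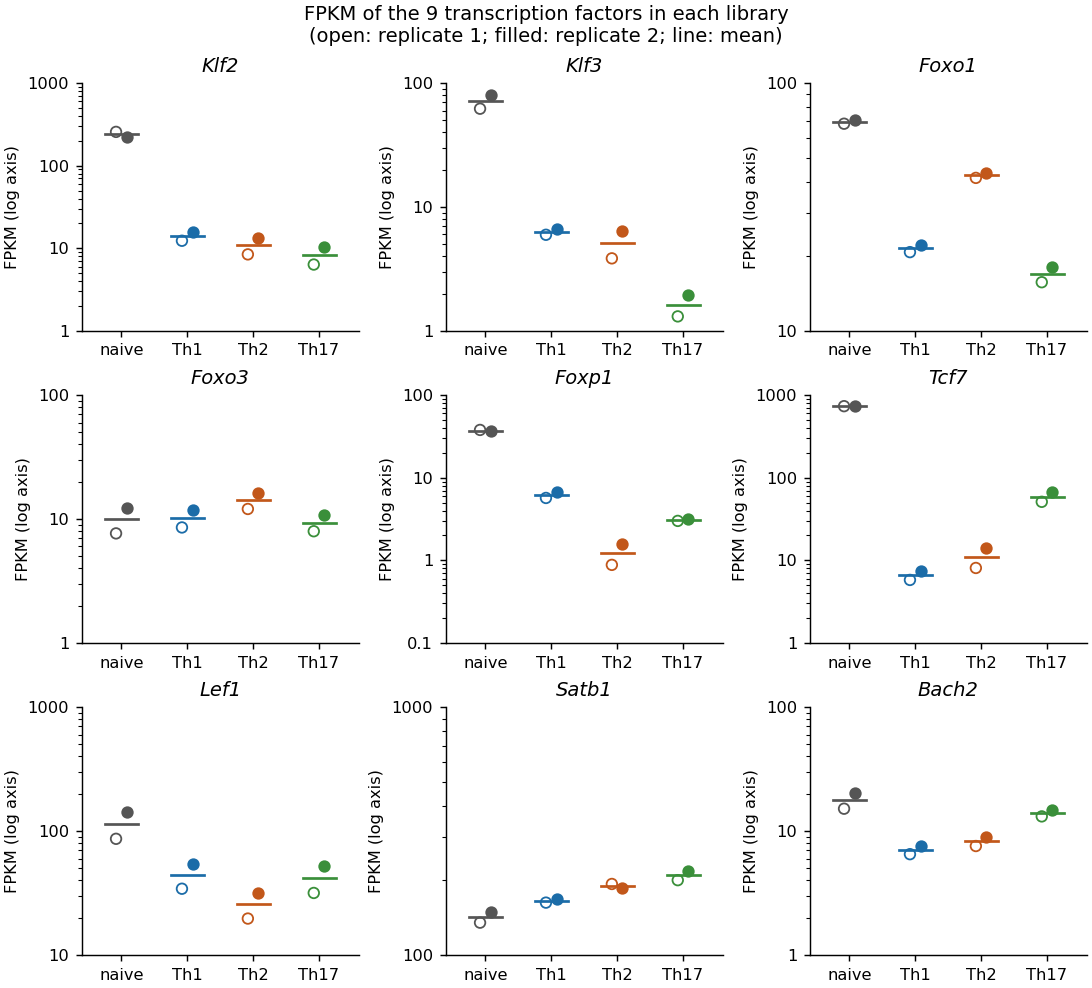
FPKM of each of the 9 transcription factors (vertical axis, logarithmic, with its own range in each panel) in the naive, Th1, Th2 and Th17 libraries. Open circles are replicate 1, filled circles replicate 2 and lines the mean of the 2 libraries. In 7 panels the effector points all lie below the naive points, in the *Satb1* panel they all lie above, and in the *Foxo3* panel they overlap.

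Differences from naive cells were tested with limma on log2(FPKM + 1), with Benjamini-Hochberg adjustment across all 11198 genes and a threshold of 0.05. Of the 9 genes, 7 were lower and 0 higher in Th1 cells, where 67.3% of all genes tested passed (33.5% lower and 33.8% higher). In Th2 cells, 7 were lower and 1 higher, where 70.5% of all genes passed (38.7% lower and 31.8% higher). In Th17 cells, 6 were lower and 1 higher, where 67.3% of all genes passed (29.8% lower and 37.5% higher). The median difference of the 9 genes was −1.65, −2.11 and −1.98 on the log2 scale in Th1, Th2 and Th17 cells, and that of all genes tested was −0.01, −0.11 and 0.08. In all 3 subsets 6 of the 9 genes were lower, as were 23.8% of all genes. The 3 comparisons share the naive libraries and are not independent of each other.

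**Figure D2:**
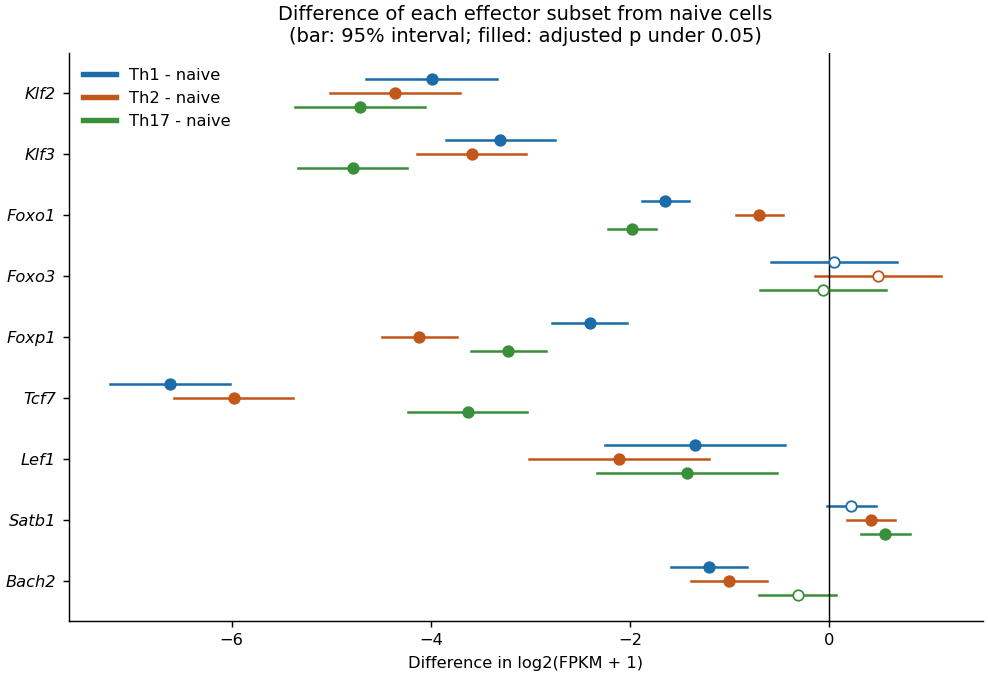
Difference of each effector subset from naive cells in log2(FPKM + 1) (horizontal axis) for the 9 genes, with 95% intervals as bars, filled points for an adjusted p under 0.05 and open points otherwise. *Tcf7* lies farthest from 0 in Th1 (−6.62) and Th2 cells (−5.98), *Klf3* in Th17 cells (−4.79), and *Satb1* lies to the right of 0.

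The Krüppel-like factors were among the genes with the largest differences. *Klf2* (chr8:72319062-72321654, plus strand), which activates the lymph node exit gene *S1pr1*, was at 257 and 221 FPKM in the naive libraries, 12.3 and 15.9 in those of Th1, 8.43 and 13.5 in those of Th2, and 6.35 and 10.4 in those of Th17 cells. No effector library came near either naive library. The mean level in naive cells was 16.9-fold that in Th1, 21.8-fold that in Th2 and 28.5-fold that in Th17 cells. The log2 differences were −3.99, −4.36 and −4.71 (SE 0.27, limma adjusted p = 1.93e-05, 1.07e-05 and 7.78e-06).

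*Klf3* (chr5:64803523-64830129, plus strand), a repressor of the same family and itself a known target of KLF factors, was at 62.1 and 80.9 FPKM in the naive libraries, 5.96 and 6.61 in those of Th1, 3.85 and 6.34 in those of Th2, and 1.31 and 1.94 in those of Th17 cells. The Th17 libraries lay below all others. Naive cells held 11.4-fold, 14.0-fold and 44.0-fold the mean level of Th1, Th2 and Th17 cells. The log2 differences from naive were −3.30, −3.59 and −4.79 (SE 0.23, limma adjusted p = 2.03e-05, 1.14e-05 and 3.08e-06). The ratio of *Klf2* to *Klf3* FPKM was 2.07 to 2.41 in the Th1 and Th2 libraries and 4.85 and 5.35 in the Th17 libraries, while the naive libraries gave 4.13 and 2.74.

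The forkhead factors took 3 different courses. *Foxo1* (chr3:52268337-52350109, plus strand), the main FOXO factor of T cells and an activator of *Il7r* and *Klf2*, was at 68.6 and 70.8 FPKM in the naive libraries, 20.8 and 22.3 in those of Th1, 41.4 and 43.3 in those of Th2, and 15.7 and 18.1 in those of Th17 cells. The 4 groups did not overlap, and their order was naive, Th2, Th1, Th17. Th2 cells held 60.8% of the naive mean, Th1 cells 30.9% and Th17 cells 24.3%. The log2 differences from naive were −1.65 for Th1, −0.70 for Th2 and −1.98 for Th17 cells (SE 0.10, limma adjusted p = 1.03e-05, 0.000608 and 3.74e-06).

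*Foxo3* (chr10:42185786-42276742, minus strand), a FOXO factor linked to cell death and stress genes, was at 7.65 and 12.3 FPKM in the naive libraries, 8.55 and 11.9 in those of Th1, 12.1 and 16.4 in those of Th2, and 7.97 and 10.7 in those of Th17 cells. The groups overlapped, and replicate 2 was above replicate 1 in each. The log2 difference from naive was 0.05 in Th1 cells (95% interval −0.59 to 0.68, limma adjusted p = 0.894), 0.49 in Th2 cells (−0.15 to 1.12, adjusted p = 0.140) and −0.07 in Th17 cells (−0.70 to 0.56, adjusted p = 0.832). When replicate number entered as a block, the Th2 difference passed (SE 0.09, limma adjusted p = 0.00238), as it did without naive replicate 2 (0.80, adjusted p = 0.0409). Over all settings tried, that p ranged from 0.00238 to 0.598. The ratio of *Foxo1* to *Foxo3* FPKM was 8.96 and 5.74 in naive libraries and 1.70 to 3.44 in effector libraries.

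*Foxp1* (chr6:98925342-99435345, minus strand), a FOXP repressor known to oppose FOXO1 at *Il7r*, was at 37.9 and 36.4 FPKM in the naive libraries, 5.69 and 6.77 in those of Th1, 0.880 and 1.58 in those of Th2, and 3.00001 and 3.17 in those of Th17 cells. The 4 groups did not overlap, and Th2 cells were lowest. The mean in naive cells was 5.96-fold that in Th1, 30.3-fold that in Th2 and 12.0-fold that in Th17 cells, with log2 differences of −2.40, −4.12 and −3.22 (SE 0.16, limma adjusted p = 1.57e-05, 1.06e-06 and 3.40e-06). *Foxo1* and *Foxp1* thus stood in different orders among the subsets. Th2 cells held the most *Foxo1* and the least *Foxp1*.

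*Tcf7* (chr11:52252604-52282571, minus strand) had the highest level of the 9 genes in naive cells, 735 and 741 FPKM. The Th1 libraries held 5.79 and 7.33 FPKM, the Th2 libraries 8.08 and 14.1 and the Th17 libraries 51.1 and 67.3. The Th17 libraries lay above all Th1 and Th2 libraries and far below naive cells. The naive mean was 113-fold, 66.5-fold and 12.5-fold that of Th1, Th2 and Th17 cells. The log2 differences were −6.62, −5.98 and −3.63 (SE 0.25, limma adjusted p = 1.25e-06, 1.56e-06 and 1.82e-05). *Tcf7* ranked 1 of the 9 genes by mean FPKM in the naive group, 7 with Th1, 5 with Th2 and 2 with Th17 cells.

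*Lef1* (chr3:131110471-131223331, plus strand) encodes an HMG box factor related to TCF1. It was at 86.6 and 143 FPKM in the naive libraries and 34.2 and 54.5 in those of Th1 cells. The Th2 libraries held 19.7 and 31.7 FPKM and the Th17 libraries 31.7 and 52.1. All effector libraries were below both naive libraries, and replicate 2 was 1.59-fold to 1.65-fold replicate 1 in every group. The log2 differences from naive were −1.35 for Th1, −2.11 for Th2 and −1.43 for Th17 cells (SE 0.38, limma adjusted p = 0.0167, 0.00203 and 0.0129). The Th1 and Th17 calls were lost when naive replicate 2 was left out (adjusted p = 0.0910 and 0.0717), when replicate 1 of the subset was left out (0.0977 and 0.0782) or without the filter on low values (0.0833 and 0.0656). The lowest limma adjusted p over the settings was 1.06e-05 for Th1 and 7.58e-06 for Th17 cells, both with the block.

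The balance of *Lef1* and *Tcf7* therefore differed between groups. The ratio of *Lef1* to *Tcf7* FPKM was 0.118 and 0.193 in the naive, 5.92 and 7.43 in the Th1, 2.43 and 2.24 in the Th2, and 0.620 and 0.775 in the Th17 libraries. *Lef1* exceeded *Tcf7* in the 4 Th1 and Th2 libraries and was below it in the naive and Th17 libraries, and no 2 groups overlapped.

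*Satb1* (chr17:51736187-51833290, minus strand) was at 135 and 149 FPKM in the naive libraries, 163 and 168 in those of Th1, 193 and 186 in those of Th2, and 200 and 219 in those of Th17 cells. It ranked 3 among the 9 genes in naive cells and 1 in every effector subset, although its own change was small. Means were 116%, 134% and 148% of the naive mean in Th1, Th2 and Th17 cells. The difference passed in Th2 (0.42, limma adjusted p = 0.00884) and Th17 cells (0.56, adjusted p = 0.00239) and missed the threshold in Th1 cells (0.22, SE 0.10, 95% interval −0.02 to 0.46, adjusted p = 0.0965). In Th1 cells the sign depended on the scaling, with −0.09 after quantile normalization, which moved the median difference of all genes to −0.13, and with median scaling the difference passed (0.24, limma adjusted p = 0.0497, range over all settings 0.0497 to 0.434).

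*Bach2* (chr4:32417435-32586108, plus strand) was at 15.2 and 20.4 FPKM in the naive libraries, 6.51 and 7.64 in those of Th1, 7.57 and 8.99 in those of Th2, and 13.1 and 14.7 in those of Th17 cells. Th17 cells lay between naive cells and the other subsets without overlap. The difference from naive was −1.21 in Th1 and −1.01 in Th2 cells (SE 0.16, limma adjusted p = 0.000520 and 0.00116). In Th17 cells it was −0.32 (95% interval −0.70 to 0.07, limma adjusted p = 0.121), and it passed with the replicate block (adjusted p = 0.0154) and without naive replicate 1 (0.0287), within a range of 0.0154 to 0.549 over all settings. *Bach2* is also expressed by B cells, and the B cell marker sum was highest in the Th17 libraries, where *Ebf1* was at 8.04 and 8.56 FPKM and *Ms4a1* at 0.301 and 0.380. The part of B cells in the *Bach2* level was not tested.

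To ask whether the subsets differed from each other, the same fit was read between effector groups. Of the 9 genes, 2 differed between Th1 and Th2 cells (44.3% of all genes tested), 5 between Th17 and Th2 cells (43.6%) and 4 between Th1 and Th17 cells (25.1%). In at least 1 of these comparisons 5 genes differed, *Klf3*, *Foxo1*, *Foxp1*, *Tcf7* and *Bach2*, as did 59.9% of all genes. With the replicate block the counts were 5 (53.4% of all genes) between Th1 and Th2, 7 (53.3%) between Th17 and Th2 and 7 (33.1%) between Th1 and Th17 cells.

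*Tcf7* showed the largest difference between subsets. It was higher in Th17 than in Th2 cells by 2.35 on the log2 scale (SE 0.25, limma adjusted p = 0.000648) and lower in Th1 than in Th17 cells by −2.99 (adjusted p = 0.000270). Between Th1 and Th2 cells the difference was −0.64 (95% interval −1.24 to −0.04, adjusted p = 0.0793). This comparison passed with the replicate block (limma adjusted p = 0.0185), with median scaling (0.0471) and without Th2 replicate 1 (0.0156), and ranged up to 0.378 elsewhere.

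*Klf3* was lower in Th17 than in Th2 cells (−1.19, SE 0.23, limma adjusted p = 0.00664) and higher in Th1 than in Th17 cells (1.48, adjusted p = 0.00398). Between Th1 and Th2 cells it differed by 0.29 (95% interval −0.26 to 0.83, adjusted p = 0.349). *Klf2* had the same order of means, Th1, Th2, Th17, but neighbours in it overlapped, and none of its 3 differences passed. The largest of them, 0.71 between Th1 and Th17 cells (95% interval 0.06 to 1.37, limma adjusted p = 0.109), passed with the block (adjusted p = 0.0443, range over all settings 0.0443 to 0.418).

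*Foxo1* was lower in Th1 than in Th2 cells (−0.95, SE 0.10, limma adjusted p = 0.000419) and lower in Th17 than in Th2 cells (−1.28, adjusted p = 0.000172). *Foxp1* went the other way, higher in Th1 (1.71, SE 0.16, adjusted p = 0.000238) and in Th17 (0.89, adjusted p = 0.00487) than in Th2 cells. Between Th1 and Th17 cells, *Foxp1* was higher in Th1 (0.82, limma adjusted p = 0.0102), a call lost without Th1 replicate 2 (adjusted p = 0.0695) or without Th17 replicate 1 (0.0615) or 2 (0.0541), the lowest value over all settings being 0.00446. The same comparison of *Foxo1* gave 0.33 (95% interval 0.10 to 0.57, limma adjusted p = 0.0506). It passed with the block (adjusted p = 0.0168), with quantile normalization (0.0184) and with median scaling (0.0140), and reached 0.234 at most.

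*Bach2* was higher in Th17 than in Th2 cells (0.69, SE 0.16, limma adjusted p = 0.0141) and lower in Th1 than in Th17 cells (−0.89, adjusted p = 0.00800). The first call was lost without Th17 replicate 2 (adjusted p = 0.0870), without Th2 replicate 1 (0.0739) or with no filter (0.0543), and the second without Th17 replicate 2 (0.0605) or Th1 replicate 1 (0.0563). The lowest limma adjusted p over the settings was 0.00152 for the first and 0.000784 for the second. Between Th1 and Th2 cells, *Bach2* differed by −0.20 (95% interval −0.58 to 0.18, adjusted p = 0.354).

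For *Foxo3*, *Lef1* and *Satb1*, none of the 3 differences between subsets passed. With the replicate block, *Foxo3* was lower in Th1 (−0.44, limma adjusted p = 0.00685) and Th17 (−0.56, adjusted p = 0.00322) than in Th2 cells, and *Lef1* was higher in Th1 (0.77, adjusted p = 0.000309) and Th17 (0.68, adjusted p = 0.000662) than in Th2 cells. The adjusted p of these 4 comparisons went up to 0.636, 0.468, 0.505 and 0.613 under other settings. *Lef1* differed by 0.09 between Th1 and Th17 cells, with an interval of −0.82 to 0.99. *Satb1* differed by −0.20 between Th1 and Th2 cells (95% interval −0.44 to 0.05, limma adjusted p = 0.164), and this passed with median scaling (−0.33, adjusted p = 0.0264) and quantile normalization (−0.38, adjusted p = 0.0174, range over all settings 0.0174 to 0.379). *Satb1* differed by −0.34 between Th1 and Th17 cells (95% interval −0.58 to −0.10, limma adjusted p = 0.0519, with the block 0.0261, range over all settings 0.0239 to 0.233).

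**Figure D3:**
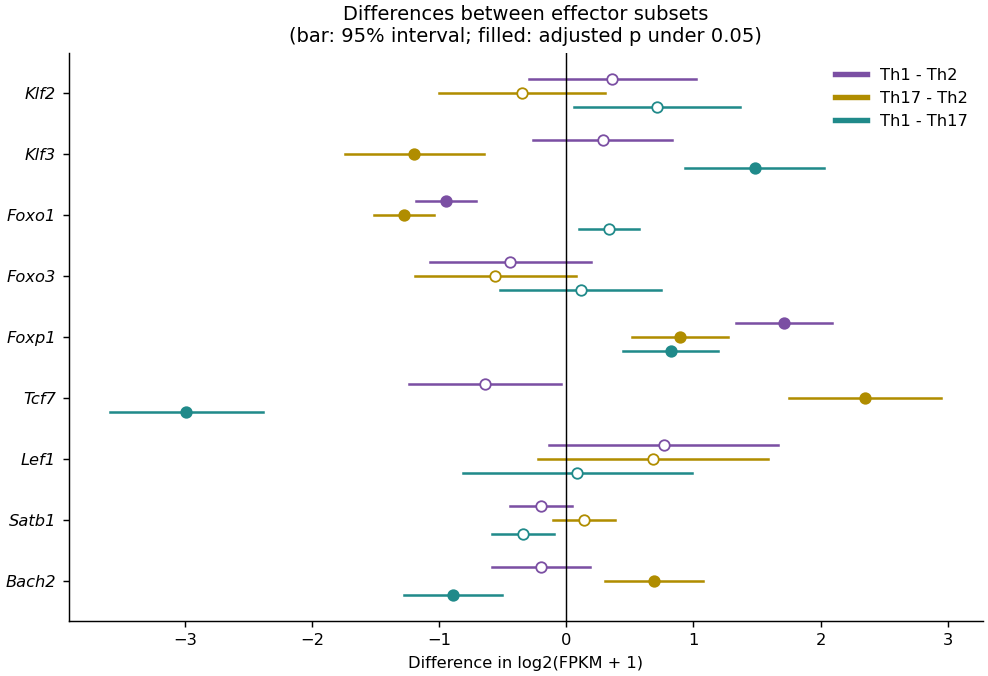
Differences between effector subsets in log2(FPKM + 1) (horizontal axis) for the 9 genes, with 95% intervals as bars, filled points for an adjusted p under 0.05 and open points otherwise. *Tcf7* separates Th17 from Th1 (−2.99) and Th2 cells (2.35), and *Foxo1* and *Foxp1* lie on opposite sides of 0 in the 2 comparisons with Th2 cells.

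The libraries with replicate number 2 tended to hold more of these RNAs. Replicate 2 was above replicate 1 for 7 of the 9 genes in the naive group, for 9 with Th1, 8 with Th2 and 9 with Th17 cells, against 50.8%, 60.5%, 46.7% and 62.5% of all genes tested. The ratio of replicate 2 to replicate 1 was 1.34 to 1.61 for *Foxo3* over the 4 groups. Gene length moved with this difference in naive and Th2 cells. The median difference of replicate 2 from replicate 1 was 0.13 on the log2 scale for the 2540 genes with the longest transcripts (at least 4633 bases) and −0.09 for the 2541 with the shortest (up to 2058 bases) in naive cells, and 0.07 and −0.10 in Th2 cells. With Th1 and Th17 it was 0.08 and 0.07 for the longest and 0.02 and 0.06 for the shortest. GC content moved with it in naive, Th1 and Th17 cells. For the genes of highest GC content (at least 54.5%) the median was 0.06 in naive, 0.15 in Th1 and 0.18 in Th17 cells, and for those of lowest (up to 44.8%) it was −0.10 in each of these, whereas with Th2 it was −0.02 and 0.03. *Klf2* (61.6% GC) was in the highest group and *Satb1* (44.8%) at the upper edge of the lowest, and the other factors were at 44.9% to 53.2%. The longest transcripts of *Foxo1*, *Foxo3*, *Foxp1*, *Satb1*, *Bach2* and *Klf3* were all among the longest. Those of *Lef1* (3656 bases), *Tcf7* (2471 bases) and *Klf2* (1847 bases) were not. The differences of *Lef1* were 0.65 to 0.72 in the 4 groups. In naive, Th1, Th2 and Th17 cells those of *Tcf7* were 0.01, 0.30, 0.74 and 0.39, and those of *Klf2* −0.21, 0.35, 0.62 and 0.63. The part of length and GC content in these values was not tested.

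**Figure D4:**
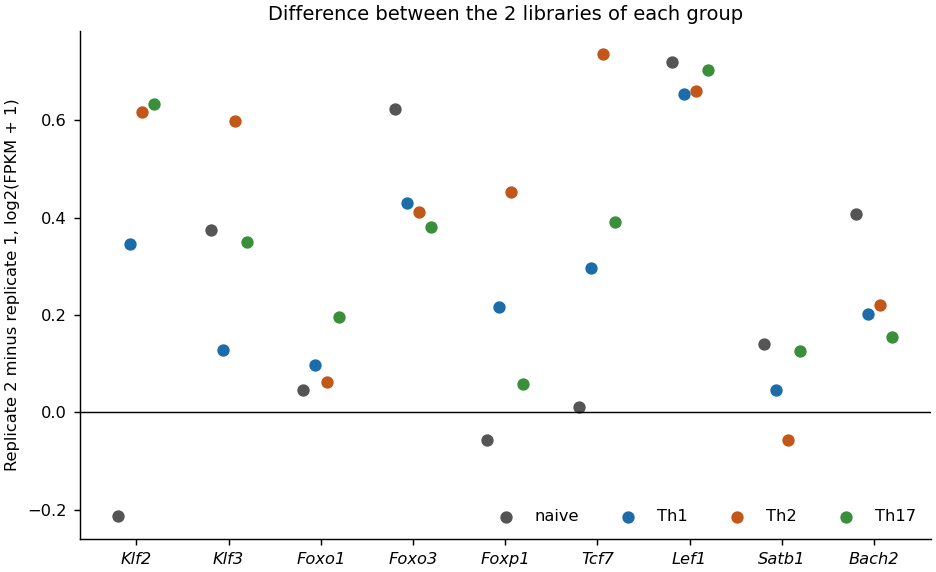
Difference of replicate 2 from replicate 1 in log2(FPKM + 1) (vertical axis) for each of the 9 genes in the naive, Th1, Th2 and Th17 groups. Of the 36 points, 33 lie above 0, those of *Lef1* lie between 0.65 and 0.72, and *Klf2* ranges from −0.21 in naive to 0.63 in Th17 cells.

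Close relatives of the 9 genes moved in both directions. Of 19 paralogs, 12 had a mean of at least 1 FPKM and were tested, and *Klf4*, *Klf5*, *Klf12*, *Foxo6*, *Foxp2* and *Tcf7l2* were among those that were not. In Th1, Th2 and Th17 cells, 5, 8 and 5 of the 12 were lower than in naive cells and 3, 3 and 4 were higher, with median differences of −0.23, −0.62 and 0.05. Of all genes tested, 33.5%, 38.7% and 29.8% were lower and 33.8%, 31.8% and 37.5% were higher. With the replicate block 4 paralogs were higher in Th1 cells, *Klf6* among them, and the other counts stayed. *Klf9* (0.65, 1.78 and 1.02) and *Klf10* (1.33, 0.56 and 1.09), a factor induced by TGF-β, rose in all 3 subsets, whereas *Klf13*, *Bach1*, *Foxo4* and *Foxp3* fell in all 3. The level of *Klf9* was low, 0.314 and 0.215 FPKM in the naive libraries and at most 3.41 FPKM in an effector library. *Foxp3*, the factor of regulatory T cells, was at 6.68 and 12.8 FPKM in the naive libraries and 3.03 and 5.76 in the Th17 libraries. *Klf6* set Th2 cells apart, at 42.5 and 33.0 FPKM in the naive libraries, 46.9 and 39.4 in those of Th1, 16.2 and 12.99 in those of Th2, and 61.0 and 47.1 in those of Th17 cells, and it was lower in Th2 than in naive cells by −1.31 (limma adjusted p = 0.000682). It was also lower there than in Th1 and Th17 cells, which exceeded Th2 cells by 1.51 and 1.82 (limma adjusted p = 0.000961 and 0.000572). Between Th1 and Th17 cells its difference of −0.31 missed the threshold (limma adjusted p = 0.292) and passed with the block (0.0186).

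Of 6 homing and survival genes regarded as targets of KLF2 and FOXO1, 5, 6 and 5 were lower in Th1, Th2 and Th17 cells, against 33.5%, 38.7% and 29.8% of all genes, and 1 was higher, in Th1 cells. With the block all 6 were lower in Th17 cells. *S1pr1* (the receptor for exit from lymph nodes), *Ccr7*, *Itgb7* and *Cd55* were lower than in naive cells in all 3 subsets. *S1pr1* and *Ccr7* were lowest in different subsets, *S1pr1* in Th2 (11.4 and 11.2 FPKM, naive 192 and 182) and *Ccr7* in Th1 cells (39.8 and 37.8 FPKM, naive 327 and 310). *Il7r*, which encodes the IL-7 receptor chain needed for naive and memory T cell survival, did not follow *Foxo1*. It was higher than in naive cells in Th1 (1.07, limma adjusted p = 0.000529), lower in Th2 (−0.52, adjusted p = 0.0145) and not called in Th17 cells (−0.32, adjusted p = 0.0888, with the replicate block 0.00614).

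Of 8 stress and cell cycle genes known as FOXO targets, 4, 4 and 5 were lower in Th1, Th2 and Th17 cells (33.5%, 38.7% and 29.8% of all genes) and 1, 2 and 1 higher (33.8%, 31.8% and 37.5%). With the block *Sesn3* was lower in Th2 (−0.59, limma adjusted p = 0.0222, without it 0.161) and higher in Th17 cells (0.88, adjusted p = 0.00461, without it 0.0551). *Sesn1*, *Gadd45a* and *Pik3ip1* (an inhibitor of PI3K) were lower in all 3 subsets, and the others differed by subset. *Cdkn1b*, which encodes the cell cycle inhibitor p27, fell in Th1 (−1.73) and Th17 cells (−1.33) and was at −0.30 in Th2 cells (limma adjusted p = 0.243). *Ccng2* rose in Th2 cells (1.48) alone of the 3, and it was higher in Th2 than in both other subsets (limma adjusted p = 0.000589 against Th1 and 0.000900 against Th17). *Irs2* rose in Th2 (2.04) and Th17 cells (1.83), and *Bcl2l11*, which encodes the death factor BIM, rose in Th1 (1.36) and fell in Th2 (−0.84) and Th17 cells (−1.19).

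Of 9 partners and targets of TCF factors, 6, 7 and 5 were lower in Th1, Th2 and Th17 cells and 0, 0 and 1 were higher, against 33.5%, 38.7% and 29.8% of all genes lower and 33.8%, 31.8% and 37.5% higher. With the block the counts were 6, 7 and 7 lower and 1, 0 and 2 higher, *Tle3* being higher in Th1 and Th17 cells and *Id3* and *Bcl6* lower in Th17 cells. *Axin2*, a target of β-catenin and TCF factors in many tissues, was at 17.0 and 20.9 FPKM in naive and between 0.795 and 2.06 FPKM in effector cells, with no difference between subsets that passed without the block. It was lower in Th1 and Th17 than in Th2 cells with it (limma adjusted p = 0.0106 and 0.00769, without it 0.0722 and 0.0532). The corepressor *Tle4* fell in all 3 subsets (−3.24, −3.66 and −3.13), as did *Bcl9* and *Bcl9l*. *Bcl6* and *Id3* were lower in Th2 cells than in naive, Th1 and Th17 cells. *Ctnnb1* (β-catenin) differed from naive by −0.17, 0.18 and −0.24, of which the Th17 difference passed (limma adjusted p = 0.0326).

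Of 10 partners of BACH2 and genes it is known to repress, 6, 9 and 6 were higher and 2, 1 and 2 lower in Th1, Th2 and Th17 cells, with and without the block, against 33.8%, 31.8% and 37.5% of all genes higher and 33.5%, 38.7% and 29.8% lower. Several of these 10, *Il4*, *Il5*, *Il13*, *Gata3* and *Il1rl1*, are genes of the Th2 program and were highest in Th2 cells. *Batf* rose in all 3 subsets (0.71, 3.79 and 1.89), and of the small MAF partners *Mafg* rose (2.45, 2.47 and 2.32) and *Mafk* fell (−0.90, −1.34 and −0.95) in all 3. *Prdm1*, which encodes the repressor BLIMP1, was at 1.78 and 2.28 FPKM in the naive libraries, 19.8 and 25.2 in those of Th1, 12.9 and 13.03 in those of Th2, and 3.17 and 3.12 in those of Th17 cells. *Prdm1* was highest in Th1 and nearest to naive in Th17 cells. The means of *Bach2* and *Tcf7* were lowest in Th1 and nearest to naive in Th17 cells. Their differences between Th1 and Th2 cells were not called in the main fit. Of the 10 genes, *Prdm1* and *Il1rl1* were higher in Th1 than in Th17 cells, and *Batf*, *Il4* and *Il13* were lower. A link of these genes to *Bach2* or *Tcf7* was not tested.

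Of 12 other genes known for T cell quiescence, 11 were tested (*Foxj1* was too low), and all 11 were lower in each of the 3 subsets, as were 23.8% of all genes, with median differences of −1.28, −1.59 and −1.66. *Tsc22d3*, a glucocorticoid-induced gene and a known FOXO target, fell most, from 313 and 276 FPKM in naive cells to between 11.3 and 23.9 FPKM. *Btg2*, an antiproliferative gene, fell from 128 and 116 FPKM to between 12.96 and 23.5 FPKM, and *Dgka* by −2.32, −2.97 and −2.47 on the log2 scale. *Ets1* differed least among those named here, by −1.13, −0.68 and −1.11.

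**Figure D5:**
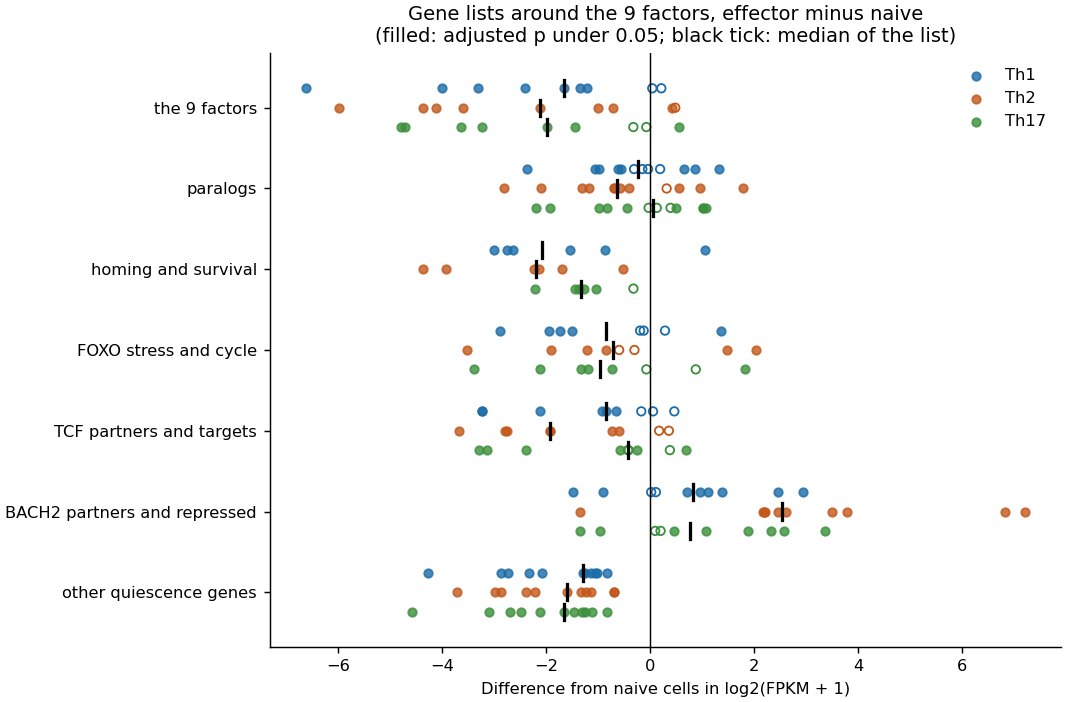
Differences of Th1, Th2 and Th17 cells from naive cells in log2(FPKM + 1) (horizontal axis) for the 9 genes and 6 lists of related genes. Each point is a gene, filled for an adjusted p under 0.05, and black ticks are list medians. All points of the other quiescence genes lie left of 0, the paralogs lie on both sides, and the BACH2 list lies mostly to the right.

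The genes whose profile over the 8 libraries came nearest to each factor were found by Euclidean distance between log2(FPKM + 1) profiles centred on their mean, and they describe likeness only. *Nsg2* and *Klf2* were nearest to *Klf3* (distance 1.08 and 1.19, r = 0.98 for both), *Gm15708* and *Gm14446* to *Klf2* (0.67 and 0.83), and *Cmah* and *Ehd3* to *Foxp1* (0.32 and 0.46). *Tcf7* had no near neighbour on this scale, *Scg5* and *Dapl1* lying at 2.11 and 2.38, although both correlated with it (r = 0.97 and 0.95). *Dapl1* was at 135 and 129 FPKM in naive cells and between 0.265 and 1.91 FPKM in effector cells. The nearest were *Kdm6b* and *Rgs10* for *Foxo1* (0.49 and 0.57), *Hdac4* for *Foxo3* (0.28), *Mll2* and *Pkd1* for *Lef1* (0.50 and 0.60), *BC088983* and *Elmo1* for *Satb1* (0.17 and 0.19), and *Pdcd11* and *Sv2a* for *Bach2* (0.39 and 0.43). Among the 9 factors themselves, *Klf2* and *Klf3* lay at 1.19, *Foxo3* and *Satb1* at 0.96, and *Tcf7* and *Lef1* at 5.59. The profiles were not scaled to the size of their change. Genes with small changes, such as *Foxo3* and *Satb1*, therefore lie close together, and genes with large changes, such as *Tcf7*, lie far from most others. The 8 libraries fall into 4 groups, so these distances carry no test.

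Some limits come from the gene models. The labels name a stranded library kit and the methods a kit that does not keep strand, so reads of overlapping transcripts on the opposite strand could be counted together. In the mouse annotation, exons of *Klf3*, *Foxo1*, *Lef1*, *Satb1* and *Bach2* overlap an exon of a transcript on the other strand, and those of *Foxp1* and *Satb1* overlap another gene on the same strand, none of which is listed in the files. The values of these 6 genes may include such reads. The *Foxp1* model in the files begins at base 99435345, inside the annotated gene, which extends to base 99522721.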

How the data were processed

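The RNA-seq libraries of naive and of Th1, Th2 and Th17 effector cells (2 each) were used. According to the submitters' processing notes, reads were aligned to mm10 with Bowtie 0.12.8 and TopHat 1.3.2, and the authors computed the deposited FPKM values with Cufflinks 2.0.2. The gene annotation is not given in the sources used here. FPKM was summed per symbol. Genes averaging 1 FPKM or more over the libraries (11198) were kept, and their log2(FPKM + 1) was fitted with limma 3.58.1 (R 4.3.3, eBayes with trend, 4 group means over all 8 libraries), with two-sided tests and Benjamini-Hochberg adjustment. The script was tested on simulated data. Replicate numbers come from the labels. Deviations of same-numbered libraries correlated by 0.138 to 0.294 in all 6 pairs of groups. The main fit nevertheless leaves the number out, and values not marked as from the block or another setting come from that unpaired fit. The fit with the number as a block is given where it changed a call of a factor or a count of a gene list against naive cells. Fragment numbers were inferred from the confidence intervals in the files, and their precision covers counting error only. Tables and figures were made with Python 3.11.15, pandas 2.3.3, numpy 2.4.6 and matplotlib 3.10.9. Transcript lengths were matched for 90.7% of genes tested. The named genes are the 9 factors, all genes of 6 related lists, marker genes of other cells and the 2 nearest genes of each factor. The factors and lists were chosen with earlier results of these data known. Results were recomputed with 0.1 as pseudocount, without the filter or with 5 FPKM as its minimum, under median scaling and quantile normalization, with fits of the 2 groups alone, no trend, the highest row per symbol, the block and each library left out. Some genes of the lists are not reported here.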

Additional observations from a re-analysis of the deposited data

Results flagged for a closer look

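For 5 of the 9 factors, at least 1 difference between effector subsets itself passed the threshold of limma. So did 59.9% of all genes tested, so such differences were not more frequent among the factors. On the log2(FPKM + 1) scale, *Foxo1* differed by −0.95 between Th1 and Th2 cells and by −1.28 between Th17 and Th2 cells. *Foxp1* differed by 1.71 (Th1 minus Th2), 0.89 (Th17 minus Th2) and 0.82 (Th1 minus Th17). *Klf3* differed by −1.19 (Th17 minus Th2) and 1.48 (Th1 minus Th17). *Tcf7* differed by 2.35 (Th17 minus Th2) and −2.99 (Th1 minus Th17). *Bach2* differed by 0.69 (Th17 minus Th2) and −0.89 (Th1 minus Th17). Groups of 2 libraries were too small to look for outlying libraries.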

How the results depend on the processing

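Of 33 calls for single factors, 28 held under all 17 other settings and 5 did not, those of *Lef1* in Th1 and Th17 against naive cells, *Foxp1* in Th1 against Th17 cells and *Bach2* in Th17 against Th2 and Th1 against Th17 cells. With the replicate block, the count of factors past the threshold went from 2 to 5 between Th1 and Th2 cells (44.3% to 53.4% of all genes). Between Th1 and Th17 cells it went from 4 to 7 (25.1% to 33.1% of all genes). The block changed no call of the 9 factors beyond those given with their comparisons. Median scaling raised the count between Th1 and Th2 cells to 4. Calls over all genes in this comparison went from 3065 higher and 1896 lower to 2294 and 2426. In fits with a library left out, the lone library left in its group was assumed to vary like the others. The sign turned for *Satb1* in Th1 against naive cells with quantile normalization (−0.0873) and in Th17 against Th2 cells with median scaling (−0.0753, against 0.14 as reported), the cause of which was not tested. Over the left-out libraries, the difference ranged across 0 for *Foxo3* in Th1 (−0.27 to 0.36) and Th17 (−0.38 to 0.24) against naive and in Th1 against Th17 cells (−0.10 to 0.33), for *Lef1* in Th1 against Th17 cells (−0.27 to 0.44) and for *Klf3* in Th1 against Th2 cells (−0.0118 to 0.59), none of which was called. Median scaling moved the median difference of all genes between Th17 and Th2 cells from 0.18 to 0.00, and its calls from 3546 higher and 1339 lower to 2098 and 2216. In Th2 against naive cells, calls went from 3560 higher and 4335 lower to 4040 and 3750. Depth limits the lowest values most, such as *Klf3* in Th17 cells, whose interval implied 89 and 99 fragments.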
